A study of Mus musculus with 45 samples.

Results

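Of the 55401 genes in the expression table, 123 formed a group that was low in Dppa4-knockout mouse embryonic stem cells (mESCs) and at a similar level in mESCs and in 2-cell-like cells (2CLCs), the rare cells of such cultures that transiently express genes of the 2-cell embryo. A gene entered the group when its mean normalized count was at least 50 in vehicle-treated wild-type cells (11644 genes), when its mean in vehicle-treated knockout cells was at most 0.35 of that, when every wild-type library lay above every knockout library, and when the ratio of sorted 2CLCs to sorted mESCs lay between 0.5 and 2 with 1 added to both means. Dppa4 itself and genes named Col, Rhox or Pcdh were left out. These measured values chose the members, so they are described here and not tested. The same Dppa4 criteria were met by 75 genes with a 2CLC to mESC ratio above 2 and by 21 with a ratio below 0.5.

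The Dppa4 experiment held 12 libraries, 3 for each of 4 groups: the line WTJ1 (wild type) and the line DPPA4KO (DPPA4 removed with CRISPR/Cas9), each given the vehicle DMSO or UNC0638 for 48 hours in FBS/LIF medium. The labels describe 3 separate clones of each line, so the DMSO and UNC0638 libraries of a line may come from the same clones. Across genes, deviations from the group mean of same-numbered wild-type DMSO and UNC0638 libraries correlated at 0.23, 0.097 and 0.42, and those of the knockout at 0.15, -0.080 and 0.0085. Other differences between the lines cannot be told apart from the loss of DPPA4. The other libraries came from EHMT2-dTAG-mcherry mESCs of a BL6/129 background, in which EHMT2 carries a tag that lets the compound dTAG degrade it; 3 clones were given DMSO or dTAG for 24 h, 7 d or 15 d, or were left to recover in DMSO for 8 d after dTAG. A MERVL-GFP reporter derivative of these cells was sorted at 72 h into GFP-negative mESCs and GFP-positive 2CLCs, with DMSO or dTAG. For the EHMT2 degradation and sorted samples only the authors' mean of each group was used, without an SD.

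DPPA4 is a SAP-domain chromatin protein of pluripotent cells that works as a partner of DPPA2. The pair binds CpG-rich promoters, among them promoters of developmental genes that carry active and repressive marks at once, and acts upstream of Dux and the genes of the 2-cell programme. EHMT2 (G9a), with EHMT1, places the repressive mark H3K9me2, and UNC0638 inhibits the catalytic activity of both.

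The 12 libraries held 8399885 to 12710949 reads on genes. Dppa4 was counted at 0 in all 6 knockout libraries, and at 726, 775 and 772 in the wild-type UNC0638 libraries. In the degron samples its group means lay between 516 and 1774. Dppa2 remained expressed in the knockout (737, 722 and 953 under UNC0638, against 640, 739 and 666 in wild type). Pluripotency markers, which define ESCs, were expressed in every group, and their summed level under UNC0638 was 79184 to 88399 in wild type and 94915 to 101277 in the knockout, higher in every knockout library. Of 28 markers of fibroblasts, the feeder cells of such cultures, 26 were expressed at a level that allowed a test, and Lum was at 0 in every UNC0638 library. Their summed level was 21374 to 29680 in wild type and 15690 to 20068 in the knockout under UNC0638, without overlap. The median log2 difference of the 26 was -0.65. Of single markers, Thy1 (703 to 818 and 390 to 673) and Postn (81.0 to 104 and 25.8 to 69.8) did not overlap. Col1a1 did (323 to 551 and 311 to 352), as did Tagln (569 to 989 and 309 to 843), Acta2 and Cnn1. In bulk samples, fewer cells of a type and less RNA per cell cannot be told apart.

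Most members coded for proteins (114 of 123). The others were 3 processed pseudogenes (Gm14058, Gm12463 and Gm5501), the lincRNAs Gm28625 and Gm4961, the processed transcripts Platr14 and C330024D21Rik, Gm48529, which is annotated as antisense, and the transcribed pseudogene Gm45752. They lay on every autosome except chromosome 17, and on the X chromosome with 4 members (3.25% of members, against 3.15% of genes at a mean of 50 or more in wild-type DMSO cells). Few were neighbours: within 100000 bases only Gpx2 and Rab15, Gm4961 and Garem2, Tmod2 and Lysmd2, and the overlapping Igf2 and Gm49394 lay together (GRCm38 coordinates, GENCODE vM21).

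One sequence comparison bears on how 2 members were measured. Gm14058 (chr2:122214620-122215354, minus strand, 1 exon) is a retrocopy whose 735 bases are 98.9% identical to the Dppa4 transcript, and Gm5501 is 91.0% identical to it over 889 aligned bases. The stretch around the splice junction after exon 2 of Dppa4 is shown with its counterpart in Gm14058, because reads that cross a junction were aligned without introns. Capitals mark the base on either side of the junction.
Dppa4: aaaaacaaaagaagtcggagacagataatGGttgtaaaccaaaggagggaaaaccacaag
Gm14058: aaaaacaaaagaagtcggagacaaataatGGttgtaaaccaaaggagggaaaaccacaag
These 60 bases differ at 1 position. All 4 coding junctions of Dppa4 that could be examined had a counterpart in Gm14058 with at most 3 mismatches, so reads of the pair can be exchanged.

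Gm14058 had 365, 418 and 457 normalized counts in the wild-type UNC0638 libraries and 0 in all 3 knockout libraries, which is at least 144-fold lower when the knockout is set at 3 reads per library. Gm5501 had 67.8, 87.8 and 87.0 against 0, 0 and 0, at least 28.2-fold lower. Both followed Dppa4 in being absent from every knockout library. Their adjusted p was 8.3e-07 and 0.00016, and whether these reads came from the pseudogenes or from Dppa4 was not tested.

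**Figure D1:**
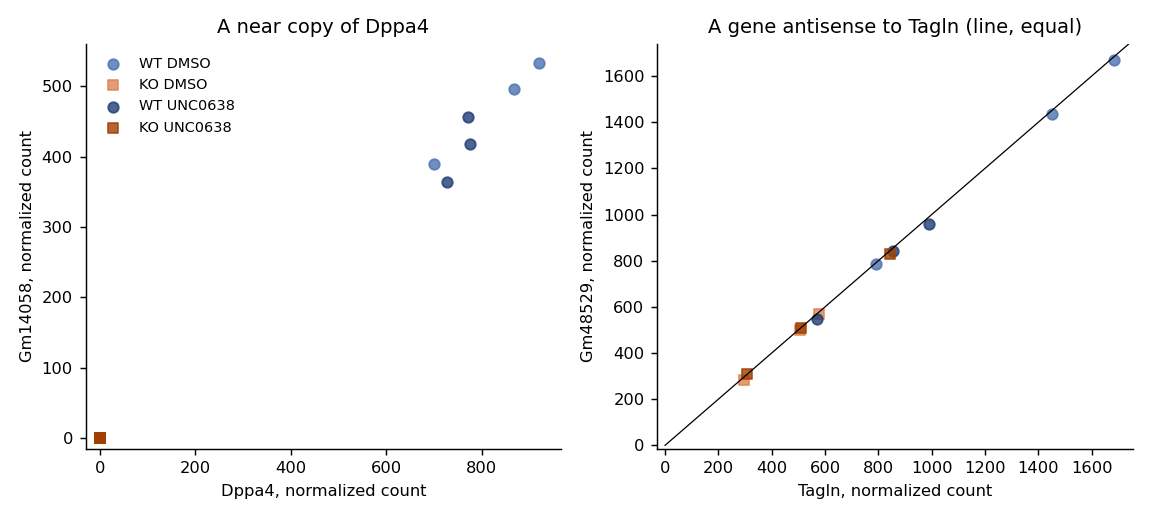
Normalized counts of Gm14058 against Dppa4 (left) and of Gm48529 against Tagln (right), 1 point per library of the Dppa4 experiment. In the left panel all 6 knockout libraries sit at 0 on both axes; in the right panel the points lie along the line of equal values.

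Promoters are shown for Sohlh2, Cdcp1 and Ttll4, the members with the largest called differences that had an entry in the promoter table. Each is the 250 bases before the RefSeq start (GRCm38.p6), written along the gene's strand with CpG dinucleotides in capitals.
Sohlh2: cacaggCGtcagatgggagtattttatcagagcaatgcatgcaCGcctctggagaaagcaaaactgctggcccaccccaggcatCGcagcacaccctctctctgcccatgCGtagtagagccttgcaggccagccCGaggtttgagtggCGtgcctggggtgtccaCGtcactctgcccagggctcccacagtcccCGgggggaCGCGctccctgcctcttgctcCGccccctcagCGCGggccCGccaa
Cdcp1: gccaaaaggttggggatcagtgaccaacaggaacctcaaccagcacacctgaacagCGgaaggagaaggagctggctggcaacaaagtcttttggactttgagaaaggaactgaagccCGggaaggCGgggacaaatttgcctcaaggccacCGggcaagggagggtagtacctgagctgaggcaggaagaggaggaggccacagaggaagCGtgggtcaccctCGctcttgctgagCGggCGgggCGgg
Ttll4: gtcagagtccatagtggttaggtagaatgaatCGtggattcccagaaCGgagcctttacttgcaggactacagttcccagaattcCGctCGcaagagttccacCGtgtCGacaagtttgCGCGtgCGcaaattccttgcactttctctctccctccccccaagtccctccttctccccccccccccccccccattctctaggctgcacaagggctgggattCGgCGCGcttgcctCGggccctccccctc
The Sohlh2 promoter (chr3:55181794-55182043, plus strand) held 14 CpG dinucleotides. Those of Cdcp1 (chr9:123216039-123216288, minus strand) and Ttll4 (chr1:74661452-74661701, plus strand) held 9 and 13. These 3 do not stand for the group. The table held 83 of the 123 members and 8202 of 11633 abundant genes (a mean of 50 or more in wild-type DMSO cells), under 80% of each, so a comparison of base composition is void. Among the entries present, 49.4% of members and 75.1% of abundant genes were CpG-rich (GC content of at least 50% and observed over expected CpG of at least 0.6 in the 300 bases from 250 before to 50 after the start), and the median observed over expected CpG was 0.63 for members and 0.79 for abundant genes.

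In the DMSO cells that chose them, members had a median wild-type mean of 111 (51.6 to 1939), and the knockout mean was a median of 24.7% of it. The threshold cut through a continuous range: Ccnd2 (34.99% left), Nsmaf (34.9%) and Setd7 (34.9%) lay just inside, and Abcb1b (35.01%), Zc4h2 (35.1%) and Ly6a (35.1%) just outside. Sohlh2 and Cdcp1 had no reads in any knockout DMSO library. At the other end of abundance Lefty1, an inhibitor of Nodal signaling, had 1154, 2494 and 2169 in wild type against 1118, 473 and 320 in the knockout.

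The UNC0638 libraries took no part in the choice, and in them the difference between knockout and wild type was tested across all genes. They may come from the same clones as the DMSO libraries, so the test is not independent of differences between clones or lines. All 123 members could be tested, and 65 (52.8%) were lower in the knockout at an adjusted p under 0.05 with a log2 difference of at least 1. None was higher at that threshold by limma, edgeR or DESeq2. Of all 17945 genes tested, 2.01% were lower and 0.697% higher. Among the genes at a mean of 50 or more in wild-type DMSO cells (the abundant genes), 1.85% were lower and 0.782% higher. At an unadjusted p under 0.05, 104 members (84.6%) were lower, against 11.1% of all genes and 10.2% of abundant genes. The median log2 difference was -1.68 for members (from -8.69 to -0.02) and -0.04 for all genes, and all 123 values were negative on this scale, as were 53.2% of all and 49.9% of abundant genes. In 99 members (80.5%) every wild-type library lay above every knockout library, which held for 12.7% of all and 11.6% of abundant genes. The knockout retained a median of 33.5% of the wild-type mean, and 32 members retained over 50%.

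The count depended strongly on which libraries were used. Without wild-type UNC0638 replicate 1, 2 or 3 it was 40, 16 or 9 members, and without knockout replicate 1, 2 or 3 it was 44, 65 or 78. Calls among all genes moved too, from 361 lower to 197, 80 or 48 without a wild-type replicate, in the same order. Without a knockout replicate they were 291, 417 or 431. These fits tested 17769 to 18059 genes. The median of the members stayed between -1.80 and -1.54. The members that passed in each of these 6 fits were 9: Atxn1l, Cd276, Gm14058, Gm5501, Kcnk1, Naa11, Nefh, Sohlh2 and Ttll4 (chosen for naming after their values were seen). How many of all genes passed in each of these fits is not given here. Whether the reads of Gm14058 and Gm5501 came from Dppa4 was not tested, as given above.

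**Figure D2:**
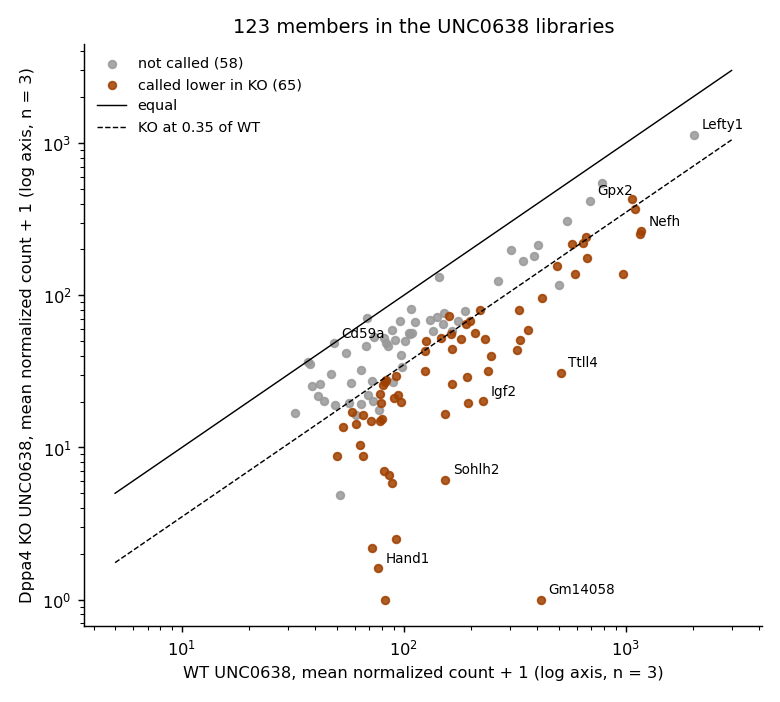
Mean normalized count plus 1 in the UNC0638 libraries of wild type (horizontal, log axis) and knockout (vertical, log axis), each from 3 libraries; every point is a member, coloured by whether it was called lower. Most members lie below the line of equal expression; Cemip (67.1 and 70.3) lies just above it, and Gm14058 and Gm5501 lie at the bottom of the vertical axis with no knockout reads.

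Transcriptional, chromatin and splicing regulators gave 10 called members of 13, with a median of -2.22. Sohlh2, a germ-cell bHLH transcription factor, had 194, 128 and 137 normalized counts in wild type against 1.84, 11.8 and 1.75 in the knockout (log2 difference -5.03, SE 0.59, adjusted p = 0.00064). Hand1, a bHLH factor of trophoblast and heart, had 9.69, 111 and 106 against 1.84, 0 and 0. The Hand1 groups did not overlap, but wild-type replicate 1 was far below the other two and the knockout libraries held only 2 reads together. The ratio of reads per total was 126, with a 95% counting interval from 34.5 to 1044, and the adjusted p was 0.013. The zinc-finger genes Zfp869 (-3.74) and Zfp775 (-2.93) were lower as well, with adjusted p-values of 0.0023 and 0.0043. Atxn1l, a partner of the repressor Capicua, had 271, 434 and 298 against 53.3, 63.4 and 33.2 (-2.74, SE 0.31, adjusted p = 0.00052). Esrp1, an epithelial splicing regulator, differed by -2.06 with an adjusted p of 0.017. Setd7, a lysine methyltransferase, differed by -2.22 (adjusted p = 0.0067), and the methyl-CpG binding protein gene Mbd1 by -1.77 (adjusted p = 0.041). Pou3f1, a POU factor of the primed epiblast, did not pass: its values of 133, 605 and 758 in wild type overlapped 74.5, 143 and 130 in the knockout (-1.81, adjusted p = 0.08). Yaf2 and Zfp618 also missed the threshold.

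Secreted signals and their partners gave 3 called members of 10, with a median of -1.54. Igf2, an imprinted growth factor (chr7:142650766-142666816, minus strand), had 65.2, 310 and 303 against 25.8, 16.1 and 15.7 (-3.23, SE 0.53, adjusted p = 0.0079). All wild-type libraries lay above the knockout, and replicate 1 was the lowest of them. Gm49394 shares exons with Igf2 on the same strand and had nearly the same values (62.5, 260 and 256 against 25.8, 16.1 and 14.0), so it is no separate observation. Wnt7b, a Wnt ligand, had 166, 262 and 197 against 40.5, 92.5 and 33.2 (-2.01, SE 0.38, adjusted p = 0.015). Fgf15, an endocrine fibroblast growth factor, had 66.9, 148 and 156 against 27.6, 40.9 and 23.6 (-1.92, SE 0.40, adjusted p = 0.023). Both kept their groups apart. Fst, which binds activin, was at -1.37 with an adjusted p of 0.058. Dlk1, an imprinted Notch-pathway ligand, had 31.7, 81.3 and 75.8 against 15.6, 10.8 and 28.8, and its adjusted p was 0.083 although the groups did not overlap. Lefty1 had 1197, 2515 and 2394 against 1946, 738 and 719 (-0.93, adjusted p = 0.2): knockout replicate 1 lay above wild-type replicate 1. Values of the Wnt antagonist Dkk2 (-0.99), the semaphorin Sema3e (-2.87), Ccn5 (-0.83) and Igfbp6 (-0.09) did not pass either.

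Receptors and other surface proteins gave 5 called members of 9. Cdcp1, a transmembrane substrate of Src kinases, had 25.5, 109 and 78.2 against 1.84, 0 and 1.75 (-4.95, SE 0.73, adjusted p = 0.0036). Cd276, an immune checkpoint ligand of the B7 family, had 457, 654 and 650 against 130, 143 and 139 (-2.07, SE 0.23, adjusted p = 0.00038). Cd24a had 603, 665 and 740 against 85.5, 247 and 189, with an adjusted p of 0.0064. The ephrin receptor Epha1 (-1.83) and the interleukin receptor subunit Il13ra1 (-1.68) also passed. Cd59a, which inhibits the complement attack complex, had 55.5, 48.6 and 38.3 against 43.2, 63.4 and 35.8, the smallest difference of all members (-0.02, SE 0.36). Susd1 (-0.05) and Cemip (-0.08) were the next smallest, and the sign of these 3 turned in some fits.

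Among 12 cytoskeletal and contractile members, 6 were lower. They included the neuronal intermediate filaments Ina and Nefh. Ina had 585, 1409 and 1479 against 269, 241 and 248 (-2.08, SE 0.31, adjusted p = 0.0039), and Nefh had 889, 1429 and 1191 against 175, 342 and 272 (-2.18, SE 0.27, adjusted p = 0.001). Neither overlapped. Ttll4, a tubulin polyglutamylase, had 499, 492 and 538 against 44.1, 6.45 and 39.3, a 21.4-fold difference (SE 0.54 on the log2 scale, adjusted p = 0.00092). Sntb1, a syntrophin of the dystrophin complex, had 73.1, 78.5 and 88.6 against 1.84, 16.1 and 0, with an adjusted p of 0.014. The actin capping gene Tmod2 (-2.59) also passed. The smooth-muscle genes did not: Acta2 had 437, 732 and 465 against 167, 273 and 480 (-0.92, adjusted p = 0.17), and Cnn1 had 71.3, 135 and 114 against 29.4, 72.0 and 140 (-0.62, adjusted p = 0.53). Acta2 and Cnn1 are also the 2 members found in the feeder list, whose sum was lower in the knockout as given above, and the part of feeders in their values was not tested. Gm48529 is annotated opposite to Tagln, another smooth-muscle gene, which is in the feeder list too. In wild type Gm48529 had 549, 960 and 841 where Tagln had 569, 989 and 857. The counter was run at its default parameters per the study's methods, which do not name the strand option. In the degron tables the pair differed (20.0 for Gm48529 and 507 for Tagln in the 7 d DMSO mean), while in sorted DMSO mESCs the means were 48.5 and 49.6. In the Dppa4 libraries reads of the pair cannot be told apart.

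**Figure D3:**
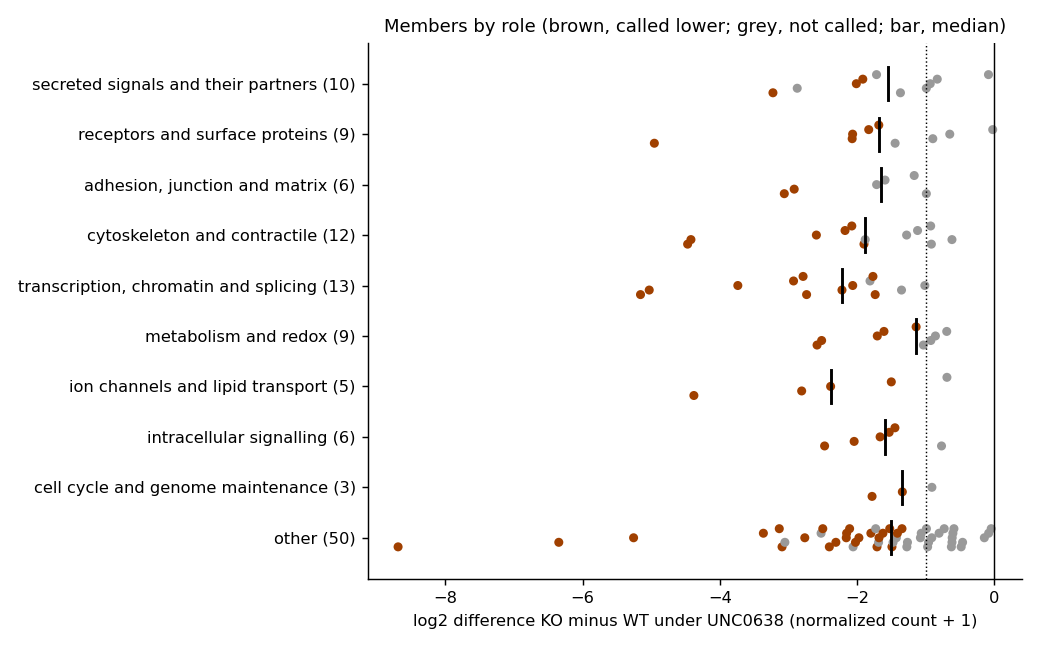
Log2 difference of knockout minus wild type under UNC0638 for each member, grouped by role; brown points were called lower, grey points were not, and the bar is the median of the role. The median is lowest for channels and lipid transport (-2.39) and for transcription, chromatin and splicing (-2.22).

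Channels and lipid transporters included Kcnk1, a background potassium channel, with 168, 417 and 387 against 35.9, 44.1 and 47.1 (-2.81, adjusted p = 0.0011), and Atp10a, a phospholipid flippase, with 29.9, 130 and 103 against 12.0, 0 and 2.62 (-4.38, adjusted p = 0.018). Kcnk6 and the vitamin E carrier gene Ttpa passed, and Atp8b3 did not. Of 9 genes of metabolism and redox balance 5 passed. The carbonyl reductase gene Cbr3 had 334, 830 and 1751 against 108, 103 and 199 (-2.58, SE 0.47, adjusted p = 0.013), with a wide spread among wild-type libraries. Gldc, of the glycine cleavage system, had 822, 1108 and 1359 against 162, 473 and 463 (-1.71, adjusted p = 0.025). Aass, Lipa and Phkb passed as well. Gpx2, a glutathione peroxidase, had 488, 576 and 1010 against 338, 359 and 550 (-0.69, adjusted p = 0.22).

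Of 6 members in intracellular signaling 5 passed: Gnai1, Rab15, Ppp2r2c, Rasip1 and Homer2, but not Camk2d. The G1 cyclin gene Ccnd2 had 1001, 1252 and 936 against 491, 481 and 305 (-1.34, SE 0.23, adjusted p = 0.011), and Pttg1 (securin) passed at -1.78. Fancb was at -0.91 and did not pass. Of 6 adhesion and matrix genes, Frem2 (-3.06) and Emilin3 (-2.92) were lower. The tight junction gene Ocln missed the threshold without overlap between groups (41.4, 86.9 and 75.8 against 21.2, 25.8 and 16.6, adjusted p = 0.057), and the cornified envelope gene Evpl was at -1.72 with an adjusted p of 0.13. The remaining 50 members, of other or unassigned function, gave 23 called and a median of -1.51. Among them Naa11, an N-terminal acetyltransferase gene, had 455, 394 and 407 against 89.2, 76.3 and 118 (-2.16, adjusted p = 0.00052). The autophagy gene Gabarapl1 had 509, 605 and 865 against 311, 278 and 137 (-1.49, adjusted p = 0.023). The lincRNA Gm28625 had 52.8, 69.1 and 151 against 1.84, 0 and 2.62 (-5.26, adjusted p = 0.0013). Gm12463 is 99.2% identical to the kinase gene Aurkc, and its -0.96 cannot be assigned to either gene.

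**Figure D4:**
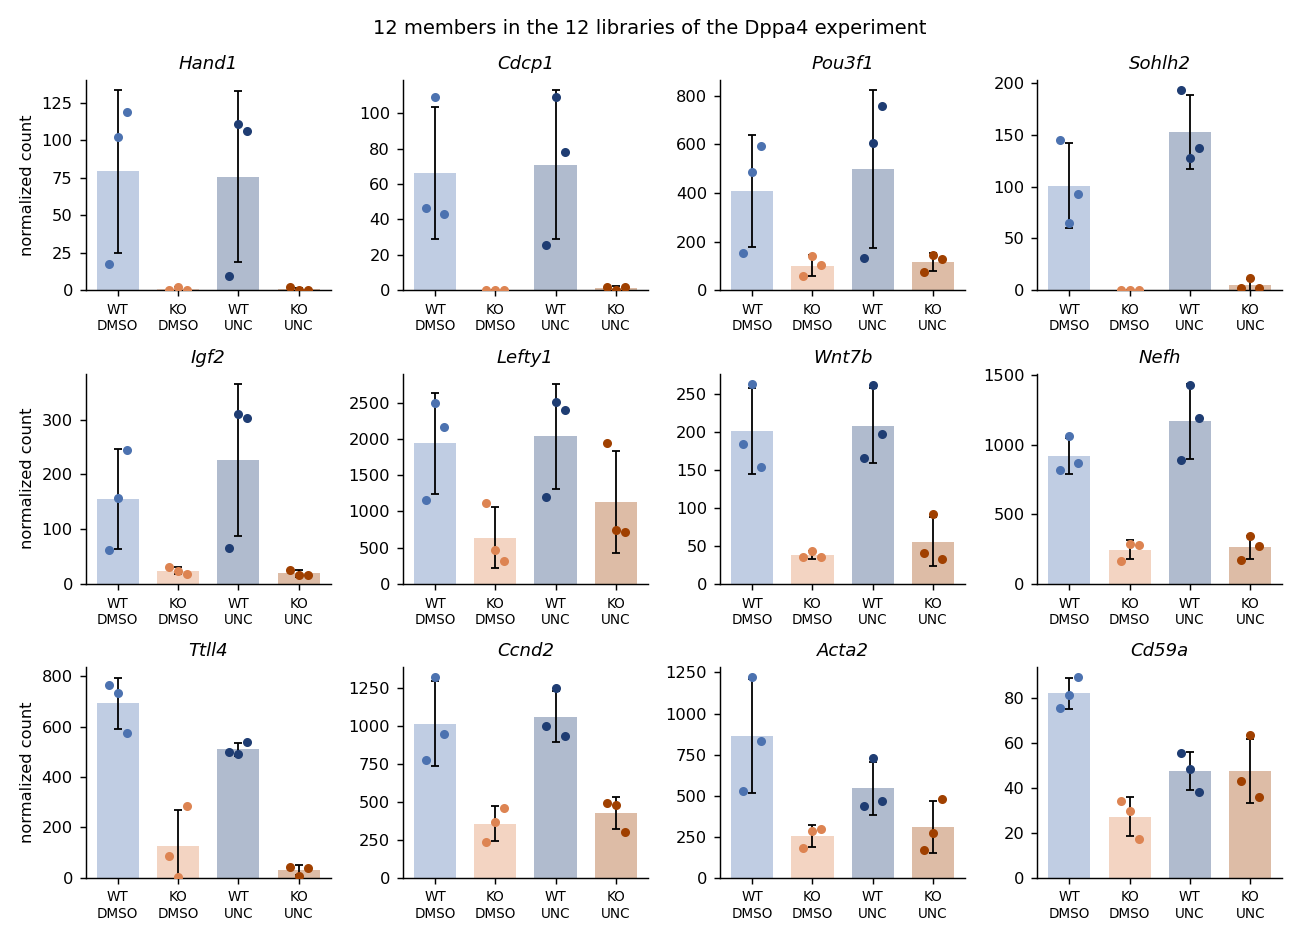
Normalized count of 12 members in each of the 12 libraries, by genotype and treatment (3 points per group, bars and error bars for mean and SD, linear axis from 0). In Sohlh2 and Hand1 the knockout libraries lie at or near 0, whereas in Lefty1 the groups overlap under UNC0638.

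A wild-type library stood apart for many members. Wild-type replicate 1 was the lowest wild-type UNC0638 library for 79 of 123 members, and for 57 members (46.3%) replicate 1 was the lowest wild-type library under DMSO and under UNC0638. The corresponding share among abundant genes was 19.2%, and the members with replicate 2 or 3 lowest under both treatments numbered 6 and 13. Hand1, Igf2, Pou3f1, Ina and Kcnk1 were among those with a low replicate 1 under UNC0638. The median member had 88.9, 117 and 110 normalized counts in the wild-type UNC0638 libraries and 32.2, 43.0 and 38.4 in the knockout, so on the median replicate 1 was still above every knockout library.

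Genes of related programmes put these counts in context. Of 303 list genes, some of them too low to be tested, 42 were called in either direction. Of all 17945 genes tested, 2.01% were lower and 0.697% higher. The 2-cell list gave 16 lower of 20 tested, and its summed level was 1395 to 10595 in wild type and 0 to 4.37 in the knockout. Germ cell and meiosis genes gave 6 lower of 22 (Dazl, Ddx4, Mael, Rpl10l, Syce1 and Tex19.1). Developmental transcription factors gave 3 lower of 17 (Hand1 and Lmx1a among them) and 2 higher (Cdx1 and Sox1). Imprinted genes gave 4 lower of 28, which were Igf2, Grb10, Peg10 and Slc38a4. Primitive endoderm genes gave 3 of 12 and trophoblast genes 2 of 11, Hand1 and Cdx2. Formative and primed epiblast genes gave 2 of 9, namely Fgf5 and Dnmt3b. Dnmt3b was the only DNA methylation gene called of 8, Dppa3 the only pluripotency gene of 22, and Lox the only feeder gene of 26 by this fit. Cldn3 was called among 11 epithelial genes and Dppa3 and Dppa4 among 4 of the DPPA family. No gene was called among 22 of the bivalent chromatin machinery, 12 of H3K9 methylation, 11 of the interferon response, 12 p53 targets or 9 immediate early genes by limma. Of these 66 genes 17 had an unadjusted p under 0.05, and edgeR and DESeq2 each called 1, in the interferon list. Eif2s3y was called among 2 Y-linked genes, whose summed level was 24.8 to 51.9 in wild type and 0 to 15.6 in the knockout.

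Set beside the genes with the same Dppa4 criteria but a different place in the 2CLC axis, the members lay between in the share called, but had the smallest median difference (-1.68). Of the 75 genes with a 2CLC to mESC ratio above 2, 47 were called lower (62.7%, median -2.95), and of the 21 with a ratio below 0.5, 8 were (38.1%, median -1.72). The difference between these groups was not tested.

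In the sorted cells members spanned a wide range of levels. The median authors' mean was 69.3 in DMSO mESCs and 72.3 in DMSO 2CLCs. At 100 or more in both were 39 members, 32 of them called lower in the knockout under UNC0638. The share called among all genes at that level was not counted, so the 32 are not read as a trait of these members. Under 10 in both were 6 (Aass, Ccn5, Dkk2, Gm28625, Gm45752 and Igfbp6). The rule had not used the sorted dTAG samples. In those, 105 of the 123 kept a 2CLC to mESC ratio between 0.5 and 2, with a median of 0.995. Above 2 lay 13, led by Esrp1 (2.92), Cavin2 (2.88) and Osmr, and 5 lay below 0.5, among them Sohlh2 at 0.400. For comparison, 59 of the 75 genes above 2 in DMSO stayed above 2 in dTAG, and 14 of the 21 below 0.5 stayed below. Both comparison groups were chosen by their DMSO ratio, and the share of all genes between 0.5 and 2 in dTAG was not counted.

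Between DMSO and UNC0638 both genotypes are described without a test, since the DMSO libraries chose the members. In the knockout 27 members (22.0%) were at least 2-fold higher under UNC0638, against 6.04% of all genes and 1.55% of abundant genes, and 1 (Ttll4) was at least 2-fold lower, against 2.79% and 0.567%. In wild type 1 member, Gpx2, was 2-fold higher (0.813%, against 4.49% of all and 0.558% of abundant genes) and 1, Evpl, was 2-fold lower (0.813% against 1.48% and 0.172%). The median difference was 0.45 in the knockout and 0.02 in wild type on the log2 scale. This contrast shares the knockout DMSO libraries, whose low values chose the members, so its share is not independent of the choice. The largest log2 difference in the knockout was that of Ocln, which had 0, 6.11 and 1.16 under DMSO and 21.2, 25.8 and 16.6 under UNC0638, while the wild-type libraries ran from 44.3 to 66.3 under DMSO and 41.4 to 86.9 under UNC0638. Sohlh2 (2.62), Gramd3 (2.33), Gpx2 (2.26) and Homer2 (2.21) followed. In 23 members (18.7%) every knockout UNC0638 library lay above every knockout DMSO library, against 8.78% of all genes, and in 2 (1.63%) every one lay below, against 7.95%. In wild type the corresponding numbers were 7 above (5.69% against 9.75%) and 14 below (11.4% against 9.9%).

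The degradation of EHMT2 was examined in cells that keep Dppa4. After 24 h of dTAG 9 of 122 members were at least 2-fold higher (7.38%, against 3.74% of all and 0.92% of abundant genes) and 6 were lower (4.92% against 2.32% and 0.858%). Cavin2 (1.91), the N-cadherin gene Cdh2 (1.75) and Acta2 (1.66) were highest on the log2 scale, and Wnt7b was lowest, with group means of 191 in DMSO and 49.7 in dTAG. After 7 d 18 members were higher (14.8% against 5.46% and 1.89%) and 6 were lower (4.92% against 4.67% and 1.45%). Hand1 went from a mean of 6.31 to 82.1, and Igf2 from 113 to 1060. Igf2 had been lower at 24 h, at 249 in DMSO and 104 in dTAG. Gm49394, which shares exons with Igf2, stood at 103 and 917 at 7 d. Serpinb9b went from 17.5 to 127, Acta2 from 252 to 787 and Ccnd2 from 407 to 1071. At the low end of the 7 d ratios stood Ubap1l (43.4 and 16.2), Evpl (253 and 108) and Gm45752 (103 and 44.2).

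At 15 d the pattern was different by value. Of 121 members 2, Trim67 (265 to 747) and Sohlh2 (214 to 557), were 2-fold higher (1.65% against 5.61% of all and 0.798% of abundant genes), and Hand1 stood at 7.06 in DMSO and 4.79 in dTAG. Lower by 2-fold were 3, Gm45752, Ubap1l and Epha1 (2.48% against 0.934% and 0.535%). After recovery no member was 2-fold higher than DMSO, against 1.81% of all and 0.535% of abundant genes, and 8 were lower (6.61% against 1.32% and 0.956%), among them Ccn5, Acta2 (1494 and 613), Osmr, Igfbp6 and Ccnd2 (2500 and 1158). The feeder list summed to 19306 after recovery and 32397 in the matching DMSO mean, and to 36350 in 7 d dTAG and 26606 in its DMSO mean. The same sum was 35857 in 24 h dTAG and 40186 in its DMSO mean, and 39658 in 15 d dTAG and 32397 in DMSO. Acta2 belongs to that list, and the part of feeder cells in these ratios was not tested.

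In sorted mESCs 13 of 119 members were 2-fold higher with dTAG (10.9% against 6.03% of all and 1.82% of abundant genes) and 7 lower (5.88% against 2.75% and 1.18%), and in sorted 2CLCs 18 were higher (15.1% against 5.99% and 1.95%) and 4 lower (3.36% against 3.49% and 0.637%). Aass, Gpx2 and Serpinb9b were among those above 2-fold in both sorted populations, and Atxn1l, a member called lower in all 6 fits that left out a library, was below it in both (707 to 309 in mESCs and 629 to 301 in 2CLCs). The feeder list summed to 11695 in DMSO and 15922 in dTAG in sorted mESCs, and to 9610 and 19968 in sorted 2CLCs. Col1a1 stood at 78.6 and 194 in sorted mESCs and at 144 and 369 in sorted 2CLCs, and the part of feeder RNA in these ratios was not tested. Over the 6 contrasts the members' median log2 ratio lay between -0.01 and 0.18. Since these are single group means, whether any of these ratios exceeds the spread among clones was not tested.

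**Figure D5:**
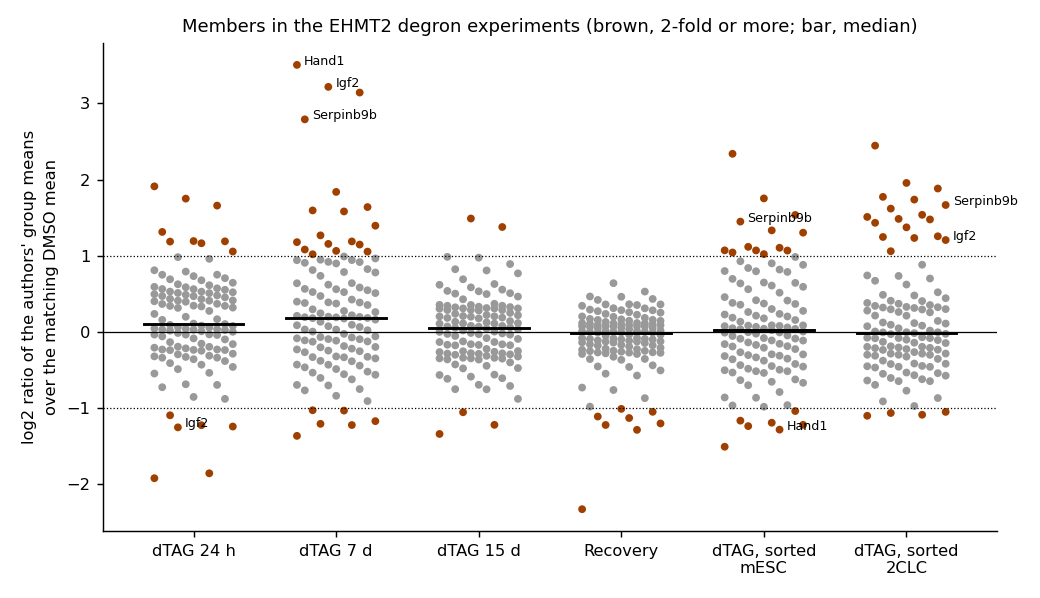
Log2 ratio of the authors' group means, EHMT2 degradation or recovery over the matching DMSO mean, for each member in 6 contrasts (brown, 2-fold or more; bar, median). The medians lie between -0.01 and 0.18, and Hand1 (3.51) and Igf2 (3.22) stand highest at 7 d.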

How the data were processed

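RNA-seq libraries (polyA, 12 in the Dppa4 experiment, 3 per group) were trimmed by the authors with Trim Galore 0.6.7 and aligned with STAR 2.7.10 to mm10 without introns and with multi-mapping reads placed once at random; TEcounts assigned reads to genes. The deposited values are a signal: gene counts that the authors divided by DESeq2 1.34.0 size factors, given per library for the Dppa4 experiment and as group means elsewhere. All values of the Dppa4 libraries came out as whole reads once each library's step was divided out (100% within 0.01 of a whole number). The authors' own comparison columns (fold changes, p-values) were not used.

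Differences were fitted with limma 3.58.1 (trend) in R 4.3.3 on log2(normalized count + 1), which understates the change of low genes, over genes with a mean of at least 5 in the 6 UNC0638 libraries, with Benjamini-Hochberg adjustment over all 17945 genes; called genes had an adjusted p under 0.05 and a log2 difference of at least 1. Alternatives were edgeR 4.0.16 and DESeq2 1.42.0 on recovered reads, other pseudocounts, filters, samples and member rules. The fit was tested on simulated data with the same spread setting for every gene, which does not cover the wider spread of some members. Libraries held 8399885 to 12710949 gene reads, and intervals and floors cover counting error only. Since the labels do not say that same-numbered libraries are paired, no block was used.

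The members and gene lists were chosen with earlier results of these data known, and roles were assigned after values were known. Members named are the 10 most abundant, the 10 with the largest called difference, the 3 with the smallest, those in any list, the 3 highest and lowest at 7 d of dTAG, the 5 with the largest knockout rise under UNC0638 and the genes beside the 0.35 threshold; further members were named after their values were seen. Coordinates are GRCm38 (GENCODE vM21, 123 members placed). Exons of 30 members overlap those of another gene. Some members named by this rule are not reported here.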

Additional observations from a re-analysis of the deposited data

Results flagged for a closer look

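In 4 members every knockout UNC0638 library lay above every knockout DMSO library while every wild-type UNC0638 library lay below every wild-type DMSO library. The log2 difference of UNC0638 minus DMSO was 1.94 in the knockout and -0.35 in wild type for 8030474K03Rik, 1.04 and -0.44 for Bbs2, a subunit of the BBSome of cilia, 0.79 and -0.78 for Cd59a, and 0.55 and -0.52 for the zinc-finger gene Zfp618. The difference between the genotypes was not tested, and the DMSO libraries of both genotypes had chosen these genes. The share of all genes with this opposite pattern was not counted. Of all genes 8.78% met the knockout part and 9.9% the wild-type part, each taken alone. These do not give the joint share, so the 4 members are not read as more than a background.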

How the results depend on the processing

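The number of members lower in the knockout under UNC0638 was 65, with 361 genes lower and 125 higher in all. It was 65 by edgeR (381 genes lower and 124 higher in all), 78 by DESeq2 (669 and 228) and 67 with TMM-scaled log2 CPM (369 and 115). Pseudocounts of 0.5 and 5 gave 62 members (321 genes lower and 113 higher) and 74 members (438 and 149). Without a filter 56 members were lower (387 and 114 of 28593 genes), and at a mean of 50 it was 45 of 83 members (175 and 104 of 11751 genes). The 4-group fit gave 64 members (451 and 169 genes). Its spread included the DMSO libraries that chose the members, so that count is not independent of the choice. Leaving out 1 library gave 9 to 78 members, and 48 to 431 genes lower in all. The lowest counts of members followed the removal of wild-type replicate 3 (9), 2 (16) and 1 (40). The list genes called, 42, ran from 13 to 46 when 1 library was left out (13 without wild-type replicate 3, 18 without replicate 2), and over the other settings from 25 at a mean of 50 to 53 by DESeq2. The members' median ran from -1.80 to -1.54 when 1 library was left out, and over the other settings from -1.70 to -1.52. The member rule gave 62 genes at a share of 0.25 and 355 at 0.5, of which 98 were called. Chosen after seeing the data, leaving out Gm14058 and Gm5501 gave 63 of 121, leaving out feeder-list members and those under 10 in both sorted DMSO groups 62 of 115, and leaving out members with overlapping exons 45 of 93. The 115 still included Gm48529, whose reads cannot be told apart from those of the feeder-list gene Tagln in the Dppa4 libraries.

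The sign turned for uncalled members: Cemip was at 0.06 by edgeR and 0.061 by DESeq2. With 1 library left out, Cd59a ranged from -0.25 to 0.16, Susd1 from -0.35 to 0.22, Cemip from -0.54 to 0.25 and Gramd3 from -0.87 to 0.051. Members lower after recovery fell from 8 to 5 with a pseudocount of 5 and to 5 at a mean of 50. In sorted mESCs at a mean of 50 the counts were 6 higher and 4 lower, and in sorted 2CLCs 2 were lower at either setting. Beyond the smaller numbers of samples and genes, the cause was not tested. The members left and the shares of all genes at these settings are not given here, so the changed counts are not read as a result about the members. Over the 37 named members, 473 of 539 values kept direction and side of the threshold, 41 lost the call, 12 gained it and 13 changed sign.

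With the replicate number as a block, 78 members and 682 genes (506 lower, 176 higher) were called. Deviations of same-numbered wild-type and knockout UNC0638 libraries correlated at 0.060, -0.077 and 0.12, so the numbers were not taken to pair the samples.

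Hand1 had 2 reads in the knockout UNC0638 libraries together, so its fold has a wide counting interval, and with 3 libraries per group the removal of a single wild-type library ended many calls.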
